A study of Mus musculus with 12 samples.

Results

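The lysosomal gene set comprised 34 genes taken from a list of mouse symbols: 10 cathepsins, 12 other acid hydrolases, 9 membrane proteins, and 3 soluble cofactors. Probes of the array were assigned to these genes by accession, and 33 of the 34 genes were found among the 20886 genes measured; no probe accession matched Cd68. All 33 passed the filter on dim probes, which left 19663 genes. Each gene was described in the brain of 12 mouse models of aging or Alzheimer's disease (AD), and the design asks in which of these models the lysosomal genes were higher or lower.

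Transcripts were quantified on 12 Agilent mouse arrays of 1 colour, with 1 array per model and RNA pooled from 3 animals on each array. Values are log2 of the processed spot intensity after quantile normalization, called the log2 signal, and levels of different genes are not compared because each probe has its own scale. Prefrontal cortex of C57BL/6 mice was taken at 1.5, 4, 17, and 22 months of age. Hippocampus of transgenic mice, with the strain labelled C57BL/6 and C57BL/6N named as their background in the methods, came from mice overexpressing mutated human NCSTN (10 months), mice overexpressing wild-type human MAPT (12 months), and 5×FAD mice (6 months). The 5×FAD mice carry APP with the Swedish, Florida, and London mutations. Hippocampus of ICR mice, which were 7 weeks of age, was collected 14 days after intracerebroventricular (i.c.v.) injection of aggregated amyloid-β (Aβ) at 5 or 10 µM or of streptozotocin (STZ) at 2.5 or 3 mg/kg, or 30 min after intraperitoneal (i.p.) scopolamine at 1 mg/kg. The promoters of the transgenes are not given in the sources used here, and control arrays were not analysed here. Therefore, each array was set against the average of the remaining arrays from its strain and region (4 cortex, 3 transgenic, and 5 ICR arrays), and this difference on the log2 scale is called the ratio. Because there was 1 array per model, no difference between models has a replicate check, and arrays grouped over ages or doses are of different conditions, so no test was run. Counts of genes past 2-fold, a log2 ratio of 1, were instead set beside the share of all 19663 genes past the same limit.

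Lysosomes are acidic compartments in which proteins, glycans, and lipids are degraded. Cathepsins are their proteases, and the remaining hydrolases remove sugars, acyl chains, and other groups one bond type at a time. Membrane proteins protect the limiting membrane, transport sterols and ions, and acidify the lumen, whereas soluble cofactors present lipids to the enzymes or act in trafficking. In the brain, every cell type has lysosomes, but microglia, the resident phagocytes, are known for a high content of several cathepsins, and many lysosomal genes are targets of the transcription factor TFEB, which recognizes E-box elements containing CACGTG.

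The arrays were checked against their labels before the members were compared. The share of probes well above background ranged from 63.5% to 75.9%, with the highest share on the 5×FAD array, and no spot was saturated. Of 5 hippocampus markers, 3 were higher on all 8 hippocampus arrays than on all 4 cortex arrays, and 3 of 5 cortex markers showed the reverse order. All mice are given as male in the methods, but Xist, which is transcribed from the inactive X chromosome, was well above background on 3 of 3 transgenic arrays and on 0 of 9 others. The Y-linked genes Ddx3y and Eif2s3y were well above background on 9 of 9 other arrays and on 0 of 3 transgenic arrays. The ratios of the transgenic arrays therefore use only each other, and values of other arrays given beside them also differ in sex-linked genes, age, and treatment, and in strain or region. Of the 33 members, 31 were well above background on all 12 arrays, whereas Ctse was so on 5 arrays and Atp6v0d2 on 1 array. The shares of all genes given below also cover genes that were not well above background. They are therefore not matched to the members in signal.

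In 5×FAD hippocampus, most members of the gene set were higher than in NCSTN and MAPT hippocampus, and the cathepsins had the largest ratios. A total of 14 of 33 members (42.4%) were at least 2-fold higher on the 5×FAD array, compared with 6.05% of all genes, and 0 members were at least 2-fold lower, compared with 4.69% of all genes. At 1.5-fold, 23 members were higher and 1 was lower, whereas 13.3% and 13.5% of all genes were higher and lower, respectively. The median ratio was 0.96 for the members and -0.05 for all genes. By role, the median was 1.46 for the 10 cathepsins, 0.71 for 12 other hydrolases, 0.76 for 8 membrane proteins, and 0.96 for 3 soluble cofactors. These medians describe overlapping ranges, as each of the 4 roles also contained a gene below 0. The 5×FAD array held the highest value of all 12 arrays for 26 members, including 9 of 10 cathepsins, compared with 15.1% of all genes. It held the lowest value for 1 member, Ctsf, compared with 24.1% of all genes. Age and model cannot be told apart within these 3 arrays, and the NCSTN and MAPT animals were older than the 5×FAD animals.

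**Figure D1:**
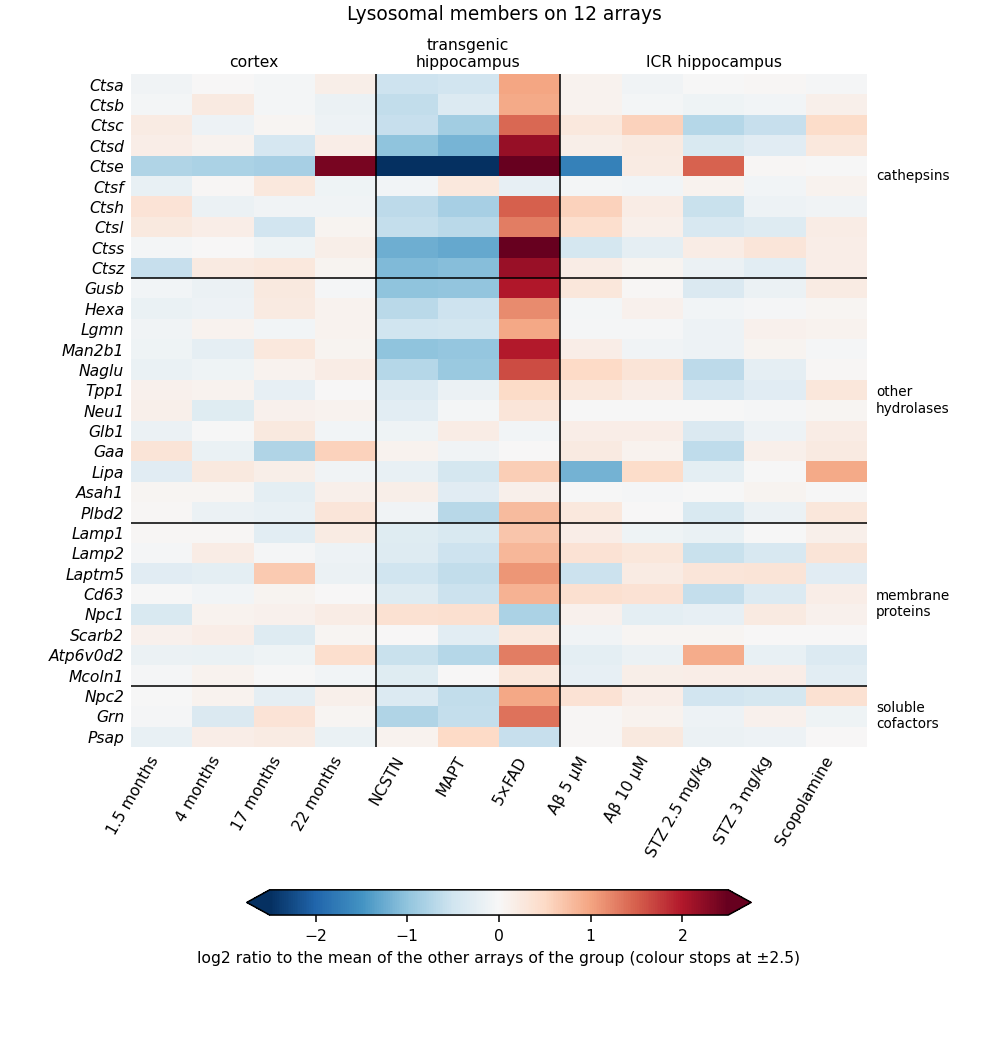
Log2 ratio of 33 lysosomal genes (rows, grouped by role) on 12 arrays (columns), each against the average of the remaining arrays from its strain and region, with red for higher and blue for lower. In the 5×FAD column, 29 of 33 genes lie above 0, beside a median of -0.05 for all genes. Because the 3 ratios of a gene in the transgenic group sum to 0, the NCSTN and MAPT columns average below 0 for those 29 genes by construction.

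Among the cathepsins, Ctss, which encodes a cysteine protease that trims the MHC class II invariant chain, had a log2 signal of 13.19 in NCSTN, 13.16 in MAPT, and 15.68 in 5×FAD hippocampus. The highest of the 11 other arrays was 13.50, and the 5×FAD ratio was 2.5 (5.66-fold). Ctsd, the major aspartic protease of the lysosome, was at 12.25, 12.14, and 14.37 on the same 3 arrays, which is a ratio of 2.17 (4.51-fold). Its pair of probes agreed in direction on the 5×FAD array, with ratios of 1.78 and 2.56. Ctsz, a carboxypeptidase, was at 11.86 in NCSTN, 11.89 in MAPT, and 14.03 in 5×FAD hippocampus, with a ratio of 2.16 (4.46-fold). For these 3 genes, the 5×FAD value was above every other array of the series, and NCSTN and MAPT differed by 0.11 or less.

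Ctse encodes a second aspartic protease, which is found in immune cells and is scarce in normal brain. Its log2 signal was 1.89 in NCSTN, 1.74 in MAPT, and 9.18 in 5×FAD hippocampus. The probe was not well above background on the NCSTN, MAPT, and 4 cortex arrays, so the difference is given as a bound, and Ctse was at least 54.5-fold higher in 5×FAD. The bound sets the mean of NCSTN and MAPT at the dimmest signal that still counted as well above background on each array, a log2 signal of 3.41 on average. Ctse was also well above background on 4 of the 5 ICR arrays, where the highest value was 6.28.

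Ctsh, an aminopeptidase, was at a log2 signal of 11.44 in NCSTN, 11.32 in MAPT, and 12.87 in 5×FAD hippocampus (ratio 1.49, 2.81-fold). Ctsc, the dipeptidyl peptidase that activates granule serine proteases, was at 8.28, 8.09, and 9.62 (ratio 1.43, 2.70-fold), but its highest ICR value, 9.61 after Aβ at 10 µM, was close to the 5×FAD value. Ctsl, a broad cysteine endopeptidase, was at 12.97, 12.92, and 14.22 (ratio 1.27, 2.42-fold). These 3 genes therefore separated 5×FAD from the other transgenic arrays by more than 2-fold, with Ctsc also high in ICR hippocampus.

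The remaining cathepsins were below the 2-fold limit. Ctsa, the serine carboxypeptidase that protects β-galactosidase and neuraminidase, had a ratio of 0.98, and its probes gave 0.53 and 1.43. Ctsb, an abundant cysteine protease, had a ratio of 0.95 (1.93-fold). Ctsf, another cysteine protease, was the exception among the cathepsins, with a ratio of -0.21 and log2 signals of 10.85 in NCSTN, 11.07 in MAPT, and 10.75 in 5×FAD hippocampus.

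Other hydrolases were divided. Gusb, the β-glucuronidase of glycosaminoglycan degradation, was at a log2 signal of 9.30 in NCSTN, 9.31 in MAPT, and 11.31 in 5×FAD hippocampus, with a ratio of 2.01 (4.02-fold). Man2b1, the lysosomal α-mannosidase, was at 11.60, 11.62, and 13.59, with a ratio of 1.98 (3.93-fold). Naglu, which removes N-acetylglucosamine from heparan sulfate, was at 9.16, 9.02, and 10.73, with a ratio of 1.64 (3.12-fold). Hexa, the α subunit of β-hexosaminidase, was at 11.63, 11.73, and 12.87, with a ratio of 1.19 (2.28-fold). These 4 glycosidases were at least 2-fold higher in 5×FAD, whereas another pair of glycosidases, Glb1 (β-galactosidase, ratio -0.07) and Gaa (acid α-glucosidase, ratio 0.01), stayed within 0.1 of the NCSTN and MAPT mean. Neu1, the sialidase, had a ratio of 0.30. Thus, the glycosidases ranged from -0.07 to 2.01 on the same array.

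Among the peptidases, lipases, and related enzymes, Lgmn, the asparaginyl endopeptidase that processes several cathepsins, had a ratio of 0.96 (1.94-fold). Plbd2, a phospholipase B-like protein, had a ratio of 0.79, and Lipa, the acid lipase of cholesteryl esters, had a ratio of 0.62. Tpp1, a tripeptidyl peptidase, had a ratio of 0.49, and Asah1, the acid ceramidase, a ratio of 0.13. Lipa was higher in ICR hippocampus after scopolamine (log2 signal of 10.25) than in 5×FAD hippocampus (9.55), so 5×FAD did not hold its highest value.

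**Figure D2:**
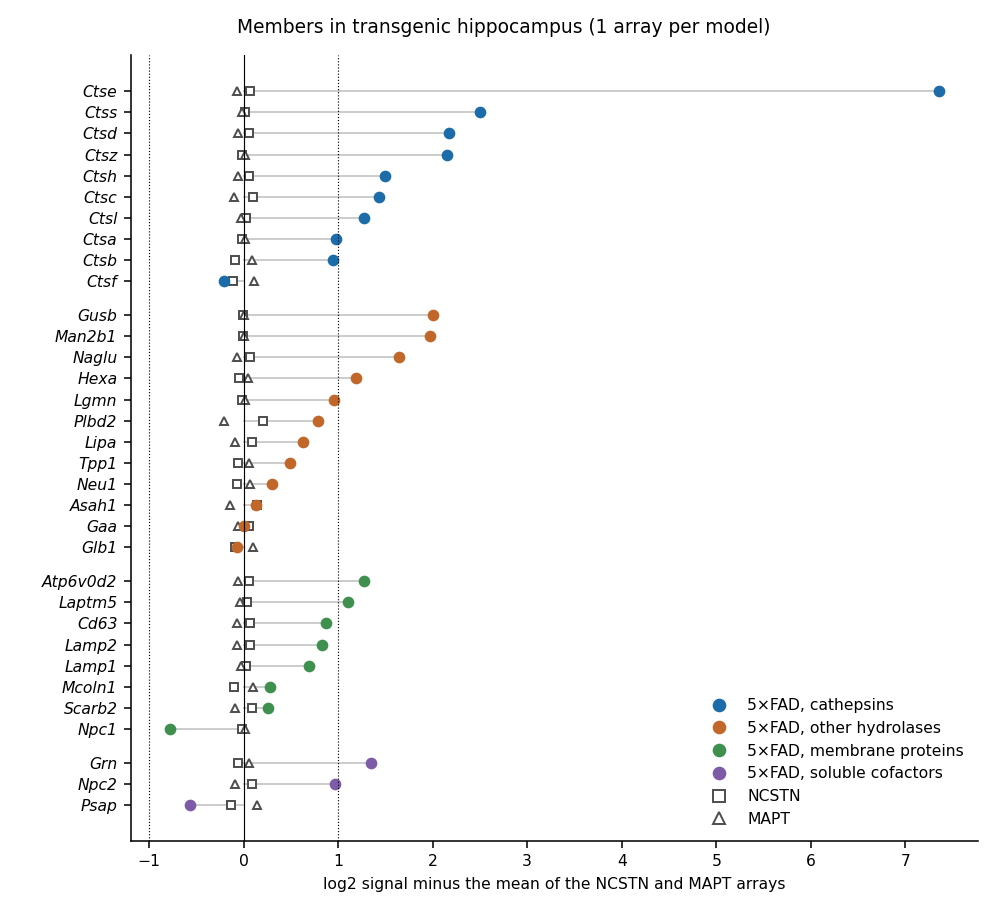
Log2 signal of 33 lysosomal genes in 5×FAD (filled circles, coloured by role), NCSTN (open squares), and MAPT hippocampus (open triangles), each minus the mean of NCSTN and MAPT, with dotted lines at 2-fold. The filled circles of 14 genes lie beyond the right dotted line, Ctse lies at 7.36 with NCSTN and MAPT not well above background, and NCSTN and MAPT differ by 0.41 at most.

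The membrane proteins had a lower median than the cathepsins. Laptm5, a transmembrane protein of hematopoietic lysosomes, was at a log2 signal of 9.55 in NCSTN, 9.47 in MAPT, and 10.61 in 5×FAD hippocampus, with a ratio of 1.10 (2.15-fold) and probe ratios of 1.0 and 1.20. Cd63, a tetraspanin, had a ratio of 0.87 (1.82-fold). The limiting-membrane glycoproteins Lamp2 and Lamp1 had ratios of 0.82 and 0.69. The cation channel gene Mcoln1 and Scarb2, which encodes the receptor that carries β-glucocerebrosidase, had ratios of 0.28 and 0.26. Npc1, the membrane protein that exports cholesterol from the lumen, went the other way, with log2 signals of 9.01 in NCSTN, 9.03 in MAPT, and 8.23 in 5×FAD hippocampus (ratio -0.78, 1.72-fold lower). Npc1 was the single member at least 1.5-fold lower. Atp6v0d2, a V-ATPase subunit isoform of osteoclasts and macrophages, was at 1.82 in NCSTN and 1.71 in MAPT, where it was not well above background, and at 3.04 in 5×FAD hippocampus, so no fold is given for it although it counts among the 14.

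Of the soluble cofactors, Grn, which encodes the growth factor precursor progranulin, was at 11.43 in NCSTN, 11.54 in MAPT, and 12.83 in 5×FAD hippocampus (ratio 1.35, 2.55-fold). Npc2, the lumenal sterol carrier that hands cholesterol to NPC1, was at 11.57, 11.39, and 12.45 (ratio 0.96, 1.95-fold). Psap, the saposin precursor and a partner of progranulin in trafficking, was at 14.72, 14.99, and 14.29 (ratio -0.57). Hence, genes whose products act together did not have the same direction on this array, as was seen for Grn with Psap and for Npc2 with Npc1.

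Promoter sequences were read to show the letters at the start sites of the members, whatever their 5×FAD ratio. RefSeq promoters (GRCm38.p6, 250 bases before to 50 bases after the start) were read for 26 members with a probe. Ctsb, Ctse, Ctsh, Asah1, Plbd2, and Atp6v0d2 had no entry, and Npc1 was left out, so the counts below do not cover them. Shown 5′ to 3′ on the strand of the gene are 4 of the 26, picked for a large 5×FAD ratio and for holding a marked word. Capitals mark CACGTG in the first pair and ACTTCCTC, the reverse complement of GAGGAAGT (a purine-rich word of the PU.1 type, a factor of myeloid cells), in the second pair. Ctsd lies at chr7:142387778-142388077 (minus strand), Naglu at chr11:101069844-101070143 (plus strand), Ctss at chr3:95526536-95526835 (plus strand), and Gusb at chr5:130003000-130003299 (minus strand).
Ctsd: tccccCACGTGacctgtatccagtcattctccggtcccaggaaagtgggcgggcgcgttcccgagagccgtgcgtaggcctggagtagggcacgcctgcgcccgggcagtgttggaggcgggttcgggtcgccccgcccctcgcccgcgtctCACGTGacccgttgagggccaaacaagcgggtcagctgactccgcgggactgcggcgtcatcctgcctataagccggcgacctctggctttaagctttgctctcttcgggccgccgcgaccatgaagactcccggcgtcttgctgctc
Naglu: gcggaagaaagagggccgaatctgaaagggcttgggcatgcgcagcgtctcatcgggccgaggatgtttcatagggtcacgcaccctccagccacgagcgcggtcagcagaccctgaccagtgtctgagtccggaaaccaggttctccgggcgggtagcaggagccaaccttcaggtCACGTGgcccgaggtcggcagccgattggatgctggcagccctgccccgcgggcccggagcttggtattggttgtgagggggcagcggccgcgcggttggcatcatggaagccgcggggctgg
Ctss: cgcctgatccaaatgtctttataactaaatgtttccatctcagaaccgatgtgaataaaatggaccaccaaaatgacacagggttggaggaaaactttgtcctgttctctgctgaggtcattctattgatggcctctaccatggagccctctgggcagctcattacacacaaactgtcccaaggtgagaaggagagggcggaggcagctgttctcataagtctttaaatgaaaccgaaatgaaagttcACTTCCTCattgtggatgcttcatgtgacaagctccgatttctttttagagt
Gusb: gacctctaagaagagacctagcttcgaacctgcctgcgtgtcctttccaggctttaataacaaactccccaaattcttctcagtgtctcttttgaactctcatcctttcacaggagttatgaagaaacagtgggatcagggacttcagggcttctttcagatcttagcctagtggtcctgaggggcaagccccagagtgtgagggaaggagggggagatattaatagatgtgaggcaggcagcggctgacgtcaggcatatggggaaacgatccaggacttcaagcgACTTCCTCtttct

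Ctsd held CACGTG 245 and 98 bases before the start, and Naglu held it 73 bases before the start. CACGTG was found in 10 of 26 member promoters (38.5%), namely Ctsa, Ctsd, Ctsf, Ctsl, Lgmn, Naglu, Glb1, Gaa, Lamp1, and Mcoln1, and in 8.09% of 27025 promoters of all genes. The longer TCACGTGA, which contains CACGTG, was found in 3 members (Ctsa, Ctsd, and Mcoln1) and in 1.12% of all promoters. A still longer word, which contains TCACGTGA, was found in 0 of 26 member promoters and in 0.37% of all promoters. At so low a share, 26 promoters are too few to show whether members lack this word. GAGGAAGT, searched on both strands like the others, was found in 3 members (Ctsc, Ctss, and Gusb; 11.5%) and in 3.69% of all promoters. It began 2 bases before the start in Ctss and 38 bases after it in Gusb. Members with CACGTG had a median 5×FAD ratio of 0.83, with 3 of 10 at least 2-fold higher, and members without it had a median of 1.03, with 8 of 16 at least 2-fold higher. The 3 members with GAGGAAGT had ratios between 1.43 and 2.5, and the other 23 had a median of 0.87. With 3 members, a link of this word to the ratios cannot be read from these values and was not tested. A match is a description of these letters and not a binding site.

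Other genes of the pathway, from lists of the same kinds of protein, had smaller medians than the members. Across these 69 genes, 8 were at least 1.5-fold higher in 5×FAD, compared with 13.3% of all genes, and 5 were lower, compared with 13.5%. The share found for the members therefore did not extend to these lists. Among 29 further hydrolases and their activators, the median 5×FAD ratio was 0.32. The list includes the cathepsins Ctsk, Ctso, and Ctsw, with ratios of 0.59, 0.96, and 0.08. In it, 1 of 29 genes was at least 2-fold lower, compared with 4.69% of all genes. Galns, a sulfatase of keratan sulfate degradation, was at a log2 signal of 10.89 in NCSTN, 10.91 in MAPT, and 9.44 in 5×FAD hippocampus (ratio -1.46). Of 17 further membrane, sorting, and regulatory genes, 0 were past 2-fold in either direction, compared with 6.05% of all genes higher and 4.69% lower. Their median was 0.05. Of 16 subunits of the V-ATPase, the proton pump of the lysosome, 4 were above 0, with a median of -0.18. None was past 2-fold, beside the same shares of all genes. Among 7 cystatins, the inhibitors of cysteine cathepsins, Cst7 (cystatin F) was at 4.13 in NCSTN, 3.78 in MAPT, and 13.41 in 5×FAD hippocampus, and the median of the 7 was 0.06. Cst7 was well above background on the MAPT but not on the NCSTN array, so no ratio is given.

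Markers of microglia moved with the cathepsins. Of 18 microglia markers, none of them a member, 17 had a 5×FAD ratio above 0, with a median of 1.34. The ratio was 3.24 for Trem2, a lipid receptor of microglia, and 2.75 for its adaptor Tyrobp, but -2.14 for Siglech, a gene of resting microglia. The summed signal of the 18 markers was 124019 in 5×FAD, 37367 in NCSTN, and 37659 in MAPT hippocampus, and 26199 to 41109 on the 9 other arrays. Astrocyte markers had a median of 0.65 (7 of 8 above 0) and neuron markers of -0.12 (4 of 10). Oligodendrocyte markers had a median of 0.44 (5 of 6 above 0), and their summed signal was 192066 in 5×FAD, 128436 in NCSTN, and 147801 in MAPT hippocampus. Endothelium markers had a median of -0.11 (1 of 5 above 0), with sums of 8297, 11209, and 11286. In tissue, more cells of a type and more RNA per cell cannot be told apart, and the part of these markers in the member ratios was not tested. The summed signal of 7 choroid plexus markers was 108943 in 5×FAD and 127726 and 137636 in NCSTN and MAPT hippocampus.

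NCSTN and MAPT hippocampus were compared directly, because their ratios above include the 5×FAD array. No member was apart by 2-fold (0 of 33, compared with 2.24% of all genes higher and 1.76% lower in NCSTN) or by 1.5-fold (0 of 33, compared with 5.55% and 4.78%). The differences, NCSTN minus MAPT, ranged from -0.27 for Psap to 0.41 for Plbd2, with a median of 0.05. The 5×FAD ratio was larger than this widest difference in 24 members that were higher and in 2 that were lower, Npc1 and Psap, and within it in the other 7. From pairs of probes of the same gene, the standard deviation of 1 probe was estimated at 0.14 for NCSTN minus MAPT and 0.37 for the 5×FAD ratio. The widest difference is therefore no measure of error for the 5×FAD ratio.

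In ICR hippocampus, few members differed by 2-fold after Aβ, STZ, or scopolamine. A total of 2 of 33 members were at least 2-fold higher or lower on any of the 5 arrays, compared with 14.7% of all genes. Ctse was at a log2 signal of 3.75 after Aβ at 5 µM, where it was not well above background, 5.28 after Aβ at 10 µM, 6.28 after STZ at 2.5 mg/kg, 5.12 after STZ at 3 mg/kg, and 5.09 after scopolamine. Ctse was thus highest after the lower STZ dose, and the higher dose lay between scopolamine and Aβ at 10 µM. Lipa was at 8.55 and 9.86 after Aβ at 5 and 10 µM, 9.30 and 9.49 after STZ at 2.5 and 3 mg/kg, and 10.25 after scopolamine. Its ratio was -1.17 after Aβ at 5 µM and 0.95 after scopolamine, and the Aβ doses lay on opposite sides of both STZ arrays. Across the 5 arrays, the median range of a member was 0.51, compared with 0.41 for all genes.

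A smaller but recurrent difference separated STZ from the other ICR arrays. Both STZ arrays were below all 3 other ICR arrays in 15 of 33 members (45.5%), compared with 14.5% of all genes, and above them in 3 members (Ctss, Laptm5, and Mcoln1), compared with 21%. The 15 genes were Ctsb, Ctsc, Ctsd, Ctsh, Ctsl, Ctsz, Gusb, Naglu, Tpp1, Glb1, Plbd2, Lamp2, Cd63, Npc2, and Psap, and the other arrays exceeded STZ by 0.12 to 0.86 for them, with a median of 0.45. A gap above 0 is fixed by the way these genes were picked, so only its size is a description. Ctsc was at a log2 signal of 9.35 and 9.61 after Aβ at 5 and 10 µM, 8.58 and 8.68 after STZ at 2.5 and 3 mg/kg, and 9.51 after scopolamine. Cd63 was at 14.78 and 14.75 after Aβ, 13.97 and 14.19 after STZ, and 14.59 after scopolamine. For Ctsc and Cd63, the STZ doses differed less from each other than from the nearest other array, whereas for Ctsh the higher dose (11.60) lay next to scopolamine (11.62). Measured as STZ minus Aβ, 5 members were at least 1.5-fold lower, compared with 9.27% of all genes, namely Ctsc (-0.85), Cd63 (-0.68), Naglu (-0.68), Lamp2 (-0.65), and Npc2 (-0.59). In the same comparison, 1 member, Ctse, counted as at least 2-fold higher, compared with 1.94% of all genes, but it was not well above background after Aβ at 5 µM, so no fold is given. By contrast, 0 members were at least 2-fold lower, compared with 5.1%. The median of all members was -0.09, but it was 0.03 with the deposited matrix, which also raised the median of all genes by 0.15.

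Of the other pathway genes, Acp5, the tartrate-resistant acid phosphatase, was at a log2 signal of 10.22 and 10.27 after Aβ at 5 and 10 µM, 8.57 and 8.69 after STZ at 2.5 and 3 mg/kg, and 10.03 after scopolamine. Both STZ arrays were again the lowest, with ratios of -1.23 and -1.09. Of the cystatins, Stfa3 was well above background after Aβ at 10 µM alone, where its log2 signal of 4.81 was at least 1.44-fold higher than on the 4 other arrays, and Cst7 was not well above background on any ICR array.

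Markers of the choroid plexus, the tissue in the ventricles that secretes cerebrospinal fluid, moved with the STZ arrays. The summed signal of 7 such markers was 3358 and 5558 after STZ and 189415 to 199213 on the 3 other ICR arrays, and 7 of 7 were lower in STZ than in Aβ, with a median difference of -5.48. Their defining gene Ttr, the carrier of thyroid hormone, was still well above background at 11.27 and 12.06 after STZ, compared with 17.33 to 17.38 on the other arrays. All 5 markers of meninges and all 5 of blood and border macrophages were also lower in STZ than in Aβ, with medians of -2.06 and -1.65, but both STZ arrays were below all 3 other ICR arrays, scopolamine included, in only 1 and 3 of these 5, respectively. All 18 microglia markers were higher in STZ than in Aβ, with a median of 0.31. Ctss and Laptm5, both at least 2-fold higher on the 5×FAD array, were among the 3 members above the other ICR arrays in STZ. Ctsc, Ctsd, Ctsh, Ctsl, Ctsz, Gusb, and Naglu, also at least 2-fold higher on the 5×FAD array, were among the 15 lowest in STZ. The part of these markers in the member differences was not tested. One cortex array, at 17 months, also differed in choroid plexus markers, with a summed signal of 50623 compared with 448 to 616 at the other ages. On that array, the 15 genes had a median ratio of -0.04, with 7 above 0 and 8 below 0. The array is of another strain and region, so the STZ difference cannot be read from it.

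**Figure D3:**
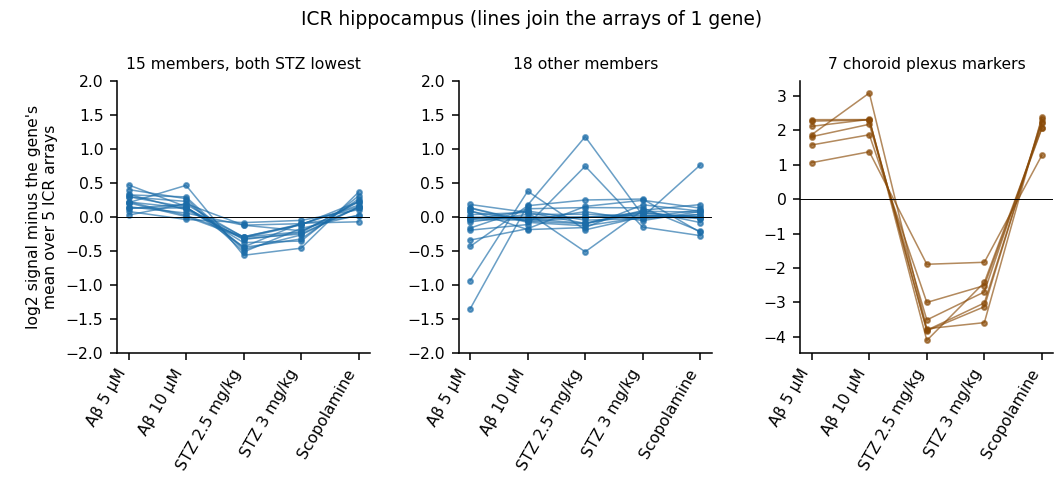
Log2 signal on 5 ICR hippocampus arrays minus the mean of each gene over these arrays, for the 15 lysosomal genes lowest on both STZ arrays (left), the 18 other members (middle), and 7 choroid plexus markers (right, with a wider axis); each line is 1 gene. The left genes were picked for this order and are lower on the STZ arrays by 0.86 at most. The choroid plexus markers differ by -3.08 to -6.16 between STZ and Aβ, and Ctse and Lipa reach farthest from 0 in the middle.

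In aging cortex, the lysosomal genes differed little. A total of 1 of 33 members was at least 2-fold higher or lower on any of the 4 arrays, compared with 9.5% of all genes. This was Ctse, at a log2 signal of 1.99, 1.97, 1.94, and 4.34 at 1.5, 4, 17, and 22 months, and it was not well above background at any age. The range over the 4 ages had a median of 0.31 for the members and 0.39 for all genes. Old (17 and 22 months) minus young (1.5 and 4 months) gave a median of 0.04 for the members, compared with 0.01 for all genes. The sign of the member median turned (-0.01) without the 22-month array. Both old arrays were above both young arrays in 9 members (Gusb, Hexa, Man2b1, Naglu, Laptm5, Cd63, Npc1, Atp6v0d2, and Grn; 27.3%), compared with 20.1% of all genes, although Atp6v0d2 was not well above background at any age and its order carries no weight. Both were below in 4 members (Ctsl, Tpp1, Lamp2, and Scarb2), compared with 15%.

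Gaa had the next largest range in cortex, with log2 signals of 11.34, 10.97, 10.53, and 11.53 at 1.5, 4, 17, and 22 months, and its probes disagreed at 17 months, where their ratios were -0.06 and -1.45. The Ctsd probes also disagreed at 17 months, with ratios of 0.44 and -1.29, so the mean ratio of -0.43 stands for neither probe. Laptm5 was highest at 17 months (9.76, compared with 9.05, 9.09, and 9.16 at 1.5, 4, and 22 months), and both of its probes had this order, with ratios of 0.78 and 0.55. Ctsz was lowest at 1.5 months (11.64, compared with 12.13 to 12.27 later). The cathepsins that were high in 5×FAD hippocampus, Ctss and Ctsd, had no common course with age: Ctss lay between 12.95 and 13.14, and Ctsd between 11.90 and 12.35.

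**Figure D4:**
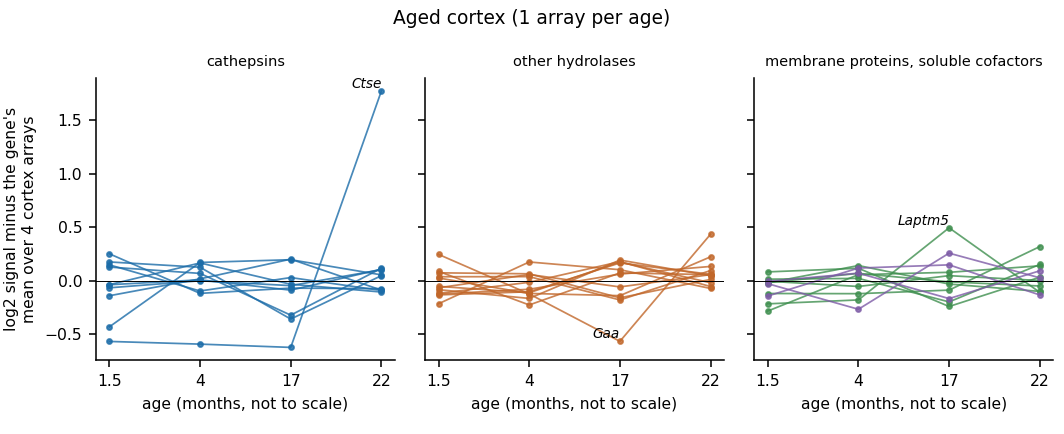
Log2 signal of the members in C57BL/6 prefrontal cortex at 1.5, 4, 17, and 22 months (1 array per age), minus the mean of each gene over the 4 ages, by role (green, membrane proteins; purple, soluble cofactors). Ctse at 22 months, which was not well above background, and Gaa and Laptm5 at 17 months leave the band in which the other genes lie.

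Across all 12 arrays, a few members also separated by region or strain. All hippocampus arrays and all ICR arrays were from transgenic or treated mice, so region or strain and treatment cannot be told apart here. Ctsa, Ctsc, and Cd63 were higher on all 8 hippocampus arrays than on all 4 cortex arrays (3 of 33 members, compared with 8% of all genes), and 0 members showed the reverse, compared with 9.22%. Ctsc was at a log2 signal of 7.69 to 7.93 in cortex, 8.09 to 9.62 in transgenic hippocampus, and 8.58 to 9.61 in ICR hippocampus. Gaa was higher on all 5 ICR arrays (11.64 to 12.34) than on all 7 C57BL/6 arrays (1 of 33 members, compared with 6.47%). Neu1, Glb1, and Psap were lower on all ICR arrays (3 of 33 members, compared with 5.05%). These shares were close to those of all genes.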

How the data were processed

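Gene expression of 12 pooled samples, with 1 array per model, was read from scanner files. The authors deposited the intensity of each spot (foreground, local background, processed signal, and flags), not normalized between arrays; the label field names Cy5, whereas the files hold green-channel columns, and the Feature Extraction version is not given in the sources used here. A matrix with processed intensity values was likewise deposited by the authors and was used as an alternative because its columns differ in processing: the column median was 116.536 for aged, NCSTN, and MAPT arrays, 133.734 for 5×FAD, and 157.249 to 157.7 for ICR arrays, and the ICR columns left 599 to 4633 probes blank and ranked probes as foreground minus background does. Its scale was taken as linear, its centring is unknown, and no direction arises for single-channel values.

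From the deposited intensity, the processed signal was put on the log2 scale. Spots marked as outliers, 110 to 234 per array, were removed unless all spots of their probe were marked. The remaining spots of 1 probe were averaged. Probes at least 1.4-fold above local background on all 12 arrays were kept (36572 of 39429) and quantile normalized over the 12 arrays. Accessions without versions were matched to the RefSeq gene table of GRCm38.p6 (27508 probes, 69.8%), and probes of 1 gene were averaged; 7 members had 2 probes and 26 had 1. The standard deviation of 1 probe was estimated from the median absolute deviation of the differences within probe pairs. The pairs came from 3068 genes with 2 probes well above background on all 12 arrays. The estimate was 0.37 for the 5×FAD ratio and 0.10 to 0.24 for the ratios of other arrays. It describes the disagreement of probes of 1 gene and leaves out the spread between animals. The number of arrays limits the precision. Python 3.11.15 with pandas 2.3.3, and R 4.3.3 with limma 3.58.1 for normexp, were used, and the calculation of ratios and counts was tested on simulated data.

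One pathway gene past 2-fold and a part of the description of a transgenic line are not reported here. Members and lists were chosen with earlier results of these data known. All members are named; values on every array of a group are given for those past 2-fold in it, other members by ranges, pathway genes where past 2-fold on a transgenic or ICR array and well above background, and markers by the largest ratios. Members also singled out after their values were seen are those near the limits and those on which probes disagree. Alternatives were scaling to the 75th percentile, quantile normalization within groups, normexp (offset of 50), other filters on dim probes, the brightest probe of a gene, the matrix, folds of 1.5 and 3, means for medians, and leaving out each reference array.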

Additional observations from a re-analysis of the deposited data

How the results depend on the processing

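With a limit of 1.5-fold and 3-fold in place of 2-fold, the number of members higher in 5×FAD hippocampus was 23 and 7 instead of 14, the number past the limit on any ICR array 7 and 1 instead of 2, and, at 1.5-fold, the number on any cortex array 3 instead of 1. The shares of all genes at 3-fold, and at 1.5-fold on any ICR or cortex array, are not given, so these numbers have no background. With normexp, 0 members were past 2-fold on any ICR array and 0 on any cortex array; with a 2-fold filter on dim probes, these were 1 and 0. The ICR number was 1 with the centred matrix and 1 to 2 when each reference array was left out, with 1 without the scopolamine array. The cortex number was 0 when both sides had to be well above background. The mean of the cathepsin ratios on the 5×FAD array was 2.01, compared with a median of 1.46, and Ctse alone had 7.36. Other settings moved these summaries less: 14 members in 5×FAD became 11 with normexp (without Atp6v0d2, Hexa, and Laptm5), 12 with the 2-fold filter (without Atp6v0d2 and Ctse), 16 with the brightest probe (adding Ctsa and Lamp2), and 16 with the matrix (adding Ctsa and Npc2), and they were 15 without the MAPT array and 15 without the NCSTN array, and 14 against all other arrays of the series. Without the 5×FAD array in the reference, the ratios in NCSTN of Ctsd (0.11), Ctse (0.15), and Ctss (0.032) and in MAPT of Ctsz (0.026) turned from below to above 0, by construction of the reference; over the arrays left out, these ranged from -2.12 to 0.11, -7.29 to 0.15, -2.49 to 0.032, and -2.14 to 0.026. Among the values of single members under the alternatives, 4370 moved by less than the probe spread and 420 by more, and 4 that were past 2-fold changed sign; smaller ratios that changed sign were counted by size. The matrix shifted the median of all genes by -0.13 after Aβ at 10 µM, 0.23 after STZ at 2.5 mg/kg, and -0.21 after scopolamine. No paired analysis was possible because each model has 1 array. A comparison within slides was not run because the files hold no slide, and normexp used the foreground median, chosen after seeing the data, as were the centred matrix, the reference of all other arrays, and the restriction to genes well above background. Ctse and Atp6v0d2 are limited by signal over background, as most arrays gave only a bound.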
